A study of Mus musculus with 8 samples.

Results

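Beta-defensins are small, cationic, cysteine-rich peptides that epithelia secrete and that damage the membranes of microbes. *Defb1* is known from the distal nephron, where it is made without an inflammatory stimulus, whereas most other mouse members are best known from the epididymis and the testis. The genes *Defb1*, *Defb18*, *Defb19*, *Defb29* and *Defb42* are described here, 5 of the 42 genes with a *Defb* symbol among the 32285 genes counted. They were selected by symbol, and the selection was made with their levels by cell type and by genotype in these cells known. These levels are therefore given as a description. Fits across all genes include the members, but no p is given for them.

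The cells described came from kidneys of 4 male embryos in a single pool, at E17.5 by the labels and E18.5 by the methods of the study. The pool also held 4508 cells with tags that the authors' list does not name, which were not used. Mice 1 and 2 were *Trim28*Δ/Δ (ko), in which Six2-EGFP/cre deletes the floxed segment of *Trim28* in nephron progenitors and thereby in the nephron epithelium they form, but not in stroma, endothelium or the collecting system. Mice 3 and 4 were *Trim28*f/f (wt), which carry the floxed alleles. Droplet-based 3′ RNA-sequencing counted unique molecular identifiers (UMIs), and a membrane-anchored tag marked the mouse of each cell. The mouse is the replicate, with 2 in each genotype.

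In all, 7363 cells with 145477998 UMIs were assigned to the 4 mice, with 1316 to 2749 cells and 25761268 to 52777501 UMIs for each mouse. Clusters were named only from marker genes and are called PT-like (proximal tubule), loop of Henle-like and so on. Counts are given as CPM, in which the UMIs of all cells of a class in a mouse are scaled to the same total. RNA free in the suspension, read from barcodes with 10 to 100 UMIs, held 92.8 CPM of *Defb1*, 51.8 CPM of *Defb19*, 48.9 CPM of *Defb29* and 9.26 CPM of *Defb42*, so that low levels in any class can come from it. These values are shares of the free RNA of the whole pool, including that of cells not used here. They are not the amount that it adds to a cell, which was not measured. *Trim28* itself reached 24.8 and 24.5 TMM CPM (defined with the genotype comparison) in the ko mice and 60.3 and 78.3 TMM CPM in the wt mice in PT-like cells. The 3′ assay reads outside the floxed segment, so this value does not check the deletion itself.

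Of the 42 *Defb* genes, 22 had at least 1 UMI in the assigned cells. *Defb1* had 7450 UMIs, *Defb29* 6016, *Defb19* 5115 and *Defb42* 655. *Defb18*, on chromosome 1 from 18236473 to 18237443 (GRCm38, minus strand), had no UMI in any of the 3921239 barcodes of the pool. For the assigned cells, 0 of 7363 cells allows a share of up to 0.0407%, and a level of up to 0.0206 CPM. These limits cover counting error only, and the share is one of cells with a UMI, not of cells that express the gene. The other 4 genes divided along the nephron: *Defb19* and *Defb29* were highest in PT-like cells, *Defb42* in loop of Henle-like cells, and *Defb1* in distal tubule-like and intercalated-like cells.

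**Figure D1:**
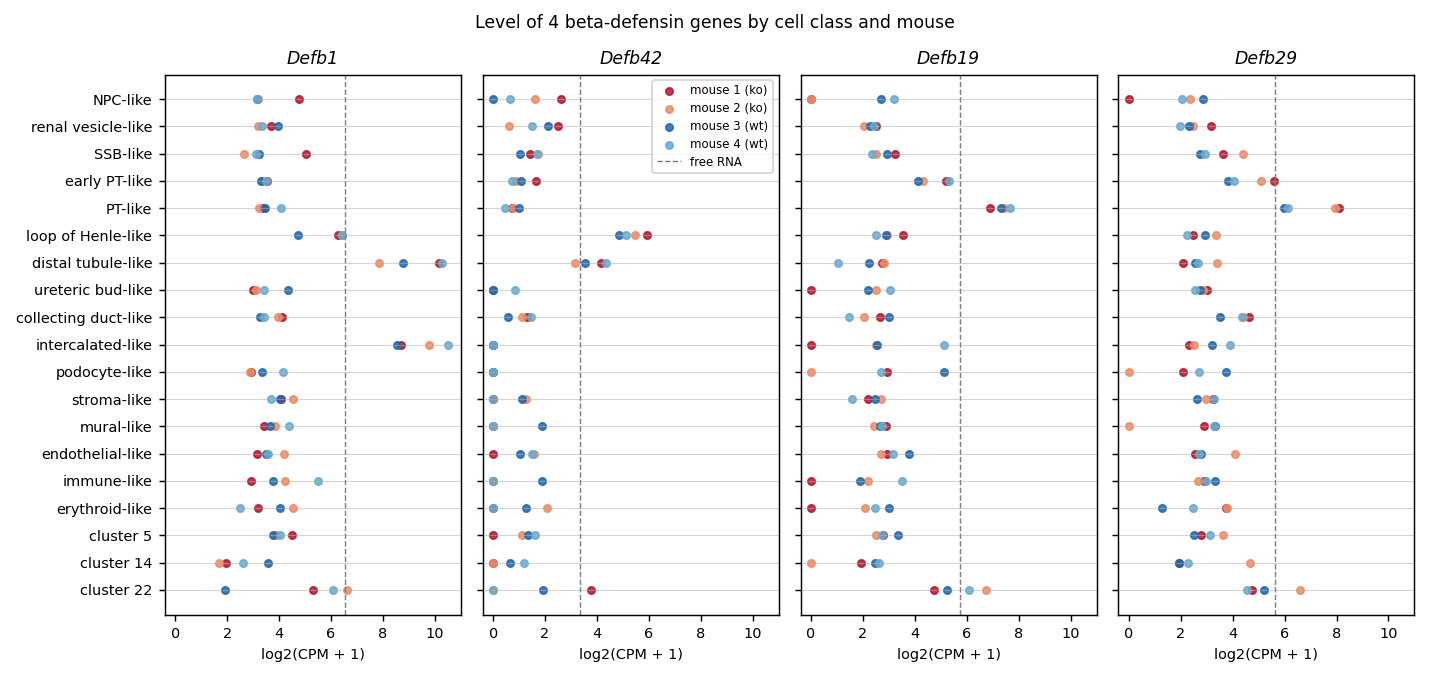
Level of 4 beta-defensin genes, as log2(CPM + 1) on the horizontal axis, in each cell class (rows), with 1 point for each mouse and a dashed line at the level in free RNA. *Defb1* stands highest in distal tubule-like and intercalated-like cells, *Defb42* in loop of Henle-like cells, and *Defb19* and *Defb29* in PT-like cells.

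*Defb1* (ENSMUSG00000044748) lies on chromosome 8 from 21776599 to 21795185 on the plus strand. Distal tubule-like cells, which were 3.18% of the cells, held 52.2% of its UMIs, and intercalated-like cells, which were 1.18% of the cells, held another 19.5%. In distal tubule-like cells it reached 1139 CPM in mouse 1, 227 CPM in mouse 2, 434 CPM in mouse 3 and 1239 CPM in mouse 4. The mean of 760 CPM was 339 CPM at a clustering resolution of 0.4. In intercalated-like cells the levels of mice 1 to 4 were 414, 880, 368 and 1471 CPM. The level of mouse 1 there rested on 10 cells with 103 *Defb1* UMIs. Mice of the same genotype thus differed in both classes, and the ranges of the classes overlapped. The order of these classes therefore cannot be told from these mice. Loop of Henle-like cells followed with 76.2, 85.9, 25.7 and 85.7 CPM in mice 1 to 4, below the free RNA. The other classes that held 10 or more cells of each mouse had mean levels of at most 20.4 CPM.

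The distribution of *Defb1* among distal tubule-like cells was uneven. Of 234 cells, 109 had no *Defb1* UMI and 74 had at least 10, and these 74 cells held 96.8% of the *Defb1* UMIs of the class. The highest cell had 236 UMIs. Cells with at least 10 UMIs numbered 22 of 55 in mouse 1, 10 of 40 in mouse 2, 22 of 99 in mouse 3 and 20 of 40 in mouse 4. The mice with a larger share of such cells were thus also those with the higher CPM, 1 mouse of each genotype. In intercalated-like cells 41 of 87 cells had at least 10 UMIs, whereas in loop of Henle-like cells 16 of 523 cells did, and these 16 held 61.2% of the UMIs of that class.

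**Figure D2:**
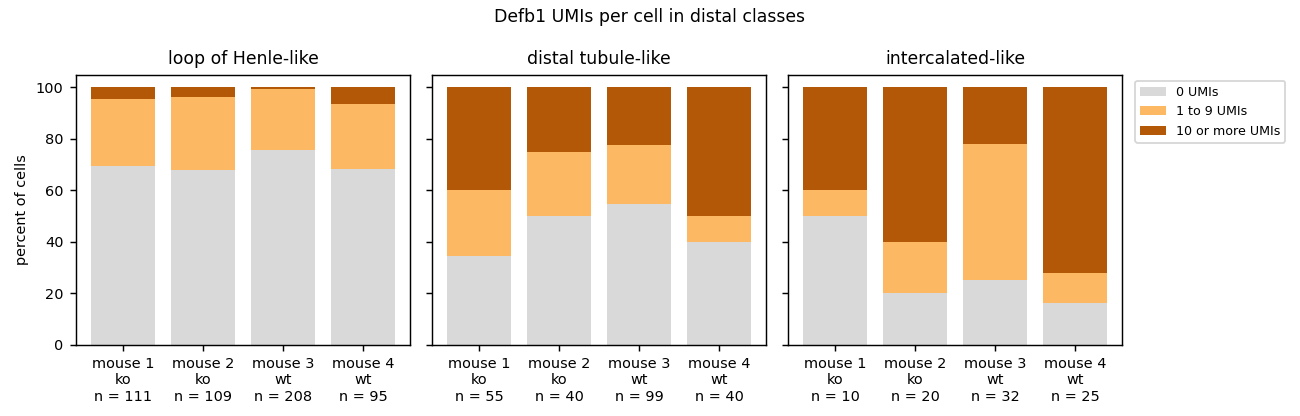
Percent of cells with 0, 1 to 9 or at least 10 *Defb1* UMIs (stacked bars) in loop of Henle-like, distal tubule-like and intercalated-like cells of each mouse, with the number of cells under each bar. Cells with at least 10 UMIs made up 22.2% to 50.0% of distal tubule-like cells and 0.481% to 6.32% of loop of Henle-like cells.

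Segment markers differed between distal tubule-like cells with and without *Defb1*. These cells were divided by *Defb1* itself, so the values are a description. They pool the 4 mice in unequal parts, so that differences between mice are not separated from those between cells. Mouse 3 gave 54 of the cells with no *Defb1* UMI and 22 of those with at least 10, and mouse 4 gave 16 and 20. *Calb1*, a calcium-binding protein of the late distal tubule, stood at 1663 CPM in the 74 cells with at least 10 *Defb1* UMIs and at 117 CPM in the 109 cells with none. *Slc12a3*, the thiazide-sensitive cotransporter, stood at 1304 and 439 CPM. *Aqp2*, a water channel of the collecting system, stood at 635 and 105 CPM, and *Scnn1b*, a subunit of the epithelial sodium channel, at 418 and 98.8 CPM. In contrast, *Sall3* stood at 31.8 CPM in cells with at least 10 *Defb1* UMIs and at 152 CPM in those with none. It is on the list of distal tubule markers with *Calb1* and *Slc12a3*. *Slc12a1*, the cotransporter of the thick ascending limb, stood at 47.4 and 188 CPM. The median cell had 21977 UMIs among those with at least 10 *Defb1* UMIs and 16609 among those with none. Markers of 1 segment did not all go the same way. *Umod* and *Kcnj1*, on the list of loop of Henle markers with *Slc12a1*, stood at 26.6 and 118.5 CPM in cells with at least 10 *Defb1* UMIs and at 8.36 and 73.3 CPM in those with none. *Ppargc1a*, on the same marker list, stood at 293.7 against 452 CPM, and *Tmem52b*, on the list of distal tubule markers with *Slc12a3*, at 983 against 1148 CPM. Markers of intercalated cells were low in the class. *Foxi1*, their transcription factor, stood at 12.9 CPM in cells with no *Defb1* UMI, 71.6 CPM in those with 1 to 9 and 25.4 CPM in those with at least 10. The proton pump subunit *Atp6v1g3* stood at 7.60, 97.2 and 75.7 CPM, and *Atp6v0d2* at 3.8, 24.8 and 21.97 CPM. In intercalated-like cells with at least 10 *Defb1* UMIs these genes stood at 372, 4447 and 506 CPM. *Slc26a4*, on the same marker list, stood at 0, 1.42 and 1.73 CPM in distal tubule-like cells with 0, 1 to 9 and at least 10 *Defb1* UMIs. *Slc4a1*, also on that list, stood at 0.38, 0 and 1.16 CPM in them.

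**Figure D3:**
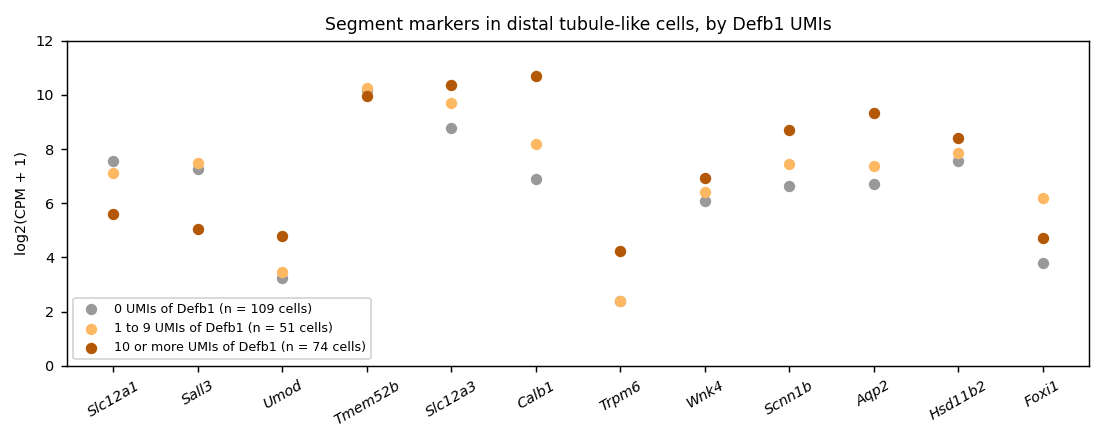
Level of 12 segment markers, as log2(CPM + 1), in distal tubule-like cells with 0 (n = 109), 1 to 9 (n = 51) or at least 10 (n = 74) *Defb1* UMIs. *Calb1* rises from 117 to 1663 CPM between the first and the last of these, while *Sall3* goes from 152 to 31.8 CPM.

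*Defb42* (ENSMUSG00000054763) lies on chromosome 14 from 63046991 to 63058149 on the plus strand, and overlaps *Defb30* on the minus strand, which had 2 UMIs in the assigned cells. Loop of Henle-like cells held 66.1% of its UMIs and distal tubule-like cells 11.3%. Its level in loop of Henle-like cells was 60.5, 42.7, 28.1 and 33.6 CPM in mice 1 to 4. In distal tubule-like cells it was 17.0, 7.80, 10.6 and 19.4 CPM. Each mouse was thus higher in the loop, and no other class that held 10 or more cells of each mouse exceeded a mean of 2.56 CPM, below the free RNA. Between 20.7% and 33.3% of loop of Henle-like cells had a UMI, with a median of 16944 UMIs per cell, against 0% to 3.31% of endothelial-like cells with a median of 12431 UMIs. In distal tubule-like cells, with a median of 19007 UMIs, this share was 18.2% to 25.0%, which overlaps the range of the loop. When each cell was thinned to 6800 UMIs, the share in loop of Henle-like cells was 9.13% to 23.4%.

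Promoter sequences of *Defb42* and *Defb29* were in the RefSeq table of GRCm38.p6, and those of *Defb1*, *Defb18* and *Defb19* were not. They are shown because the levels of these genes were highest in different classes, loop of Henle-like and PT-like cells. Each ends at the last base before the annotated gene and is written 5′ to 3′ on the strand of the gene, with matches to 4 motifs in capitals. The motifs, searched on both strands, were GTTAAT and GTTAAC, half-sites of the proximal tubule factor HNF1, CAAAGTCCA, a site of HNF4A, and TCAAGGTCA, an extended half-site of nuclear receptors. GTTAAC and TCAAGGTCA were chosen after the sequences had been read.
Defb42, chr14:63046741-63046990, plus strand: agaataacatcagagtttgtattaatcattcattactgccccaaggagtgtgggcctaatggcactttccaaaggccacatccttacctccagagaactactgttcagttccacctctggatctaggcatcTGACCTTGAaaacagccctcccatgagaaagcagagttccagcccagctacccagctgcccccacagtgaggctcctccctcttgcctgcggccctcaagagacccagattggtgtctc
Defb29, chr2:152540099-152540291, minus strand: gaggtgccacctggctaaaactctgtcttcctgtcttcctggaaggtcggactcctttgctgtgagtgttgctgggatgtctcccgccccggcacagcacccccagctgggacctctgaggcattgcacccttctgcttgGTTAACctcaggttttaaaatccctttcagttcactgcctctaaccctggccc
The window of *Defb42* holds TCAAGGTCA once, on the opposite strand and 110 bases before the gene, as do 0.39% of 32851 promoters over 250 bases. The window of *Defb29* holds GTTAAC once, 47 bases before the gene, as do 2.09% of promoters over 193 bases. The other motifs had no match in either window. A match describes the letters only.

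*Defb19* (ENSMUSG00000050645) and *Defb29* (ENSMUSG00000044249) are neighbours on the minus strand of chromosome 2, from 152576086 to 152580312 and from 152538714 to 152540098, with 35987 bp between them. PT-like cells, 13.5% of the cells, held 80.6% of the *Defb19* UMIs and 81.3% of those of *Defb29*. Over the 4 mice *Defb19* averaged 161 ± 33.4 CPM (SD, n = 4) in PT-like and 27.5 ± 11.5 CPM in early PT-like cells. *Defb29* averaged 162 ± 112 CPM in PT-like and 27.1 ± 15.8 CPM in early PT-like cells. These means pool both genotypes, and within each the genes differed: in PT-like cells *Defb29* averaged 259 CPM and *Defb19* 145 CPM in the ko mice, against 65.8 and 178 CPM in the wt mice. With all UMIs, 56.8% to 66.1% of PT-like cells had *Defb19* and 51.0% to 78.0% had *Defb29* (median 22656 UMIs per cell), against 7.44% to 11.2% and 6.21% to 12.4% of endothelial-like cells. At 6800 UMIs per cell these shares of PT-like cells were 35.2% to 41.9% and 24.2% to 60.3%.

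The PT-like class consisted of 2 clusters, in which these neighbours differed. Cluster 2 (600 cells) was led by *Spp2*, *Fbp1* and *Gsta2*, and cluster 6 (395 cells) by *Aadat*, *Cryab* and *Serpina6*. *Slc5a12*, a transporter of the convoluted segment, stood at 43.9 CPM in cluster 2 and 1.46 CPM in cluster 6, whereas *Slc22a13* of the straight segment stood at 82.6 and 117 CPM. Each was picked from a longer list of markers of its segment, whose other genes are not given here. The clusters are therefore not assigned to segments. *Defb19* was at 160, 259, 169 and 299 CPM in cluster 2 of mice 1 to 4, and at 42.7, 48.1, 70.7 and 34.7 CPM in cluster 6. Every mouse was higher in cluster 2. *Defb29* was at 293, 258, 53.5 and 63.2 CPM in cluster 2, and at 237, 225, 125 and 79.3 CPM in cluster 6. It was thus higher in cluster 2 in both ko mice and higher in cluster 6 in both wt mice, of which mouse 3 had 19 cells there. Both genes were among the variable genes that shaped these clusters.

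**Figure D4:**
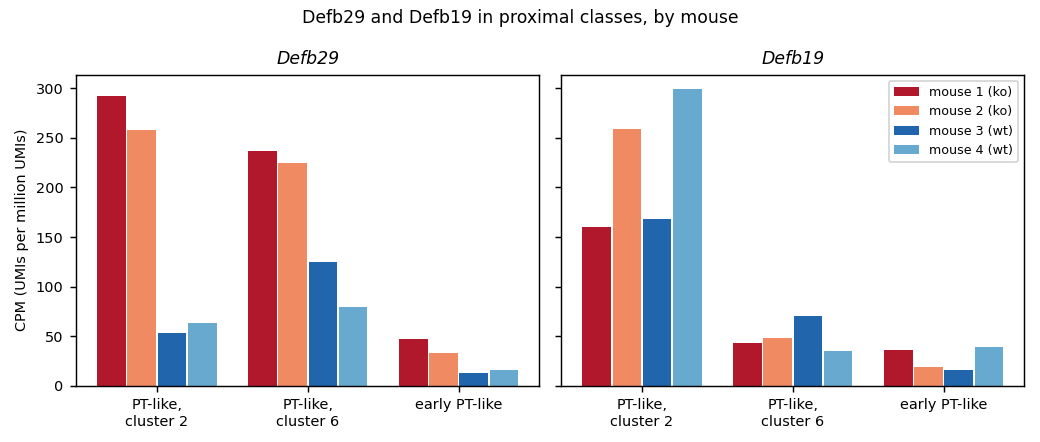
CPM of *Defb29* (left) and *Defb19* (right) in both PT-like clusters and in early PT-like cells, with 1 bar for each mouse. *Defb29* bars of the ko mice stand above those of the wt mice in all 3 classes, while *Defb19* bars of ko and wt mice overlap in each.

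Single PT-like cells often had both transcripts: 447 of 995 had both, 239 had *Defb29* alone, 144 had *Defb19* alone and 165 had neither. Across cells of 1 mouse the correlation of their log2 levels, scaled to the UMIs of each cell, lay between r = -0.06 and 0.27 (n = 149 to 345 cells). This is a description, since these cells share a library and depth limits which transcripts are seen. For each UMI of *Defb19* there were 2.29 and 1.43 UMIs of *Defb29* in the PT-like cells of mice 1 and 2, and 0.398 and 0.347 in those of mice 3 and 4. By cluster, the ratio in mice 1 to 4 was 1.83, 0.998, 0.317 and 0.211 in PT-like cluster 2. In PT-like cluster 6 it was 5.55, 4.68, 1.77 and 2.29. The free RNA held 0.944. Classes outside the PT-like and collecting duct-like cells lay between 0.412 and 1.82. Collecting duct-like cluster 11 was at 6.55, with 144 UMIs of *Defb29* and 22 of *Defb19* in 323 cells. There *Defb29* stood at 23.5, 20.4 and 19.5 CPM in mice 1, 2 and 4, while mouse 3 had only 3 cells. Collecting duct-like cells of mouse 3 lay in cluster 15, which held 175 cells of mouse 3 and 1 of mouse 2. Its ratio was 1.17, with 34 UMIs of *Defb29* and 29 of *Defb19*, and *Defb29* stood there at 8.44 CPM in mouse 3.

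The genotypes were compared in CPM with TMM normalization, in which the totals are scaled for composition. In PT-like cells *Defb29* was at 272 and 242 TMM CPM in the ko mice and at 64.1 and 68.9 TMM CPM in the wt mice. With 2 mice in each genotype, groups can stand apart even where the genotypes do not differ, and genes that do so were not counted. The groups of *Defb29* did not overlap, and its log2 change was 1.95 (SE 0.12), a 3.86-fold higher level. It was higher in the ko mice within both clusters, as given above. In early PT-like cells *Defb29* was at 47.6 and 32.4 TMM CPM in the ko mice and at 13.7 and 15.3 TMM CPM in the wt mice, with a log2 change of 1.45 (SE 0.26). This value was 2.31 at a clustering resolution of 0.4 and 2.22 with tags normalized across cells. In S-shaped body-like (SSB-like) cells it was at 11.5 and 19.985 against 5.76 and 6.56 TMM CPM, with a log2 change of 1.39 (SE 0.34). The levels in early PT-like and SSB-like cells all lay below the free RNA, whose contribution to a cell was not measured. Their means over the 4 mice were 27.1 and 10.9 CPM, against 3.38 CPM in NPC-like (nephron progenitor) cells, the lowest class mean. The SSB-like cluster was named from 7 markers, but its 10 leading genes, among them *Ube2c*, *Cenpf* and *Top2a*, are genes of cell division and histones and none is a segment marker. In the other 5 classes in which *Defb29* passed the filter on low counts, its log2 change was also above 0 and its level also below the free RNA. It was 0.73 (SE 0.56) in endothelial-like, 0.71 (SE 0.47) in renal vesicle-like, 0.54 (SE 0.35) in collecting duct-like, 0.54 (SE 0.48) in cluster 5 and 0.31 (SE 0.49) in loop of Henle-like cells. Endothelial-like and collecting duct-like cells are outside the lineage in which *Trim28* was deleted. The direction was not the same in the 10 classes where it did not pass this filter, with 10 to 32 UMIs each. Its mean was lower in the ko than in the wt mice in intercalated-like (4.32 against 10.99 CPM), podocyte-like (1.64 against 8.98 CPM), mural-like, NPC-like (nephron progenitor) and immune-like cells, and higher in the other 5. The share of PT-like cells with at least 10 *Defb29* UMIs was 24.1% and 22.3% in the ko mice and 5.37% and 3.23% in the wt mice.

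*Defb19*, 40214 bp away from *Defb29* by their starts, did not share this difference. In PT-like cells it was at 119 and 169 TMM CPM in the ko mice and at 161 and 198 TMM CPM in the wt mice, with a log2 change of -0.32 (SE 0.19) and overlapping groups. Cluster 6, where *Defb19* was lower, held 129 of 315 and 169 of 345 PT-like cells of the ko mice, and 19 of 149 and 78 of 186 of the wt mice, so that mouse 3 stood apart. Within cluster 2 *Defb19* averaged 209 CPM in ko and 234 CPM in wt mice, and within cluster 6 it averaged 45.4 and 52.7 CPM, with overlapping groups in both. Over 14 alternatives this value lay between -0.60 and 0.40, and it was below 0 in 10 of them. In early PT-like cells its log2 change was -0.01 (SE 0.42). *Defb42* in loop of Henle-like cells was at 61.2 and 42.1 TMM CPM in the ko mice and at 28.7 and 34.0 TMM CPM in the wt mice. These groups did not overlap, which 2 mice in each genotype can also give without a difference. The log2 change of *Defb42* there was 0.73 (SE 0.24). In distal tubule-like cells its log2 change was -0.16 (SE 0.48), with overlapping groups. *Defb1* differed by a log2 change of -0.30 (SE 0.54) in distal tubule-like cells, -0.57 (SE 0.53) in intercalated-like cells and 0.57 (SE 0.46) in loop of Henle-like cells, each with overlapping groups. At a resolution of 0.4 the value in distal tubule-like cells was 0.21. Without mouse 1 it was -1.93, and without mouse 4 that in intercalated-like cells was 0.81, so that single mice decide these values. Groups of members also stood apart in other classes, at levels below the free RNA. *Defb1* in collecting duct-like cells was at 15.9 and 14.4 TMM CPM in ko and 8.91 and 9.93 TMM CPM in wt mice. Its log2 change there was 0.69 (SE 0.27). *Defb19* in endothelial-like cells was at 6.65 and 5.38 against 13.4 and 7.96 TMM CPM, with a log2 change of -0.86 (SE 0.41).

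Across all genes tested in PT-like cells, edgeR's quasi-likelihood test called 63 of 12463 genes at an adjusted p threshold of 0.05, or 0.505%. Of the 3 members in this fit it called *Defb29*, from which nothing is read, since this contrast was known when the members were chosen. In early PT-like cells 0.479% of the genes tested were called, in SSB-like cells 0.187%, in loop of Henle-like cells 0.185%, in distal tubule-like cells 0.79% and in intercalated-like cells 0.0316%, and no member was among them. The count in PT-like cells depended on each mouse: it was 9 without mouse 1, 15 without mouse 2, 594 without mouse 3 and 1799 without mouse 4.

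The genes around the members were not part of the selection. Of 100 other counted genes with a start within 500000 bp of a member's start, 31 were tested in PT-like cells. None was called by edgeR, nor by DESeq2, and 7 had an unadjusted p below 0.05, while 9.64% of all genes tested did. Their median log2 change was 0.17, against -0.01 for all genes tested, and 20 of the 31 were above 0, as were 49.11% of all genes. Of the 28 that are not *Defb* genes, 17 were above 0 and 5 had an unadjusted p below 0.05. Without mouse 3 there were 2 of 31 neighbours called, where 4.49% of all genes were, and without mouse 4 there were 8 of 31, where 13.6% were. Around *Defb29* and *Defb19* on chromosome 2, other defensin genes had log2 changes of 1.35 (*Defb36*, SE 0.46, edgeR adjusted p = 0.389) and 0.17 (*Defb25*, SE 0.69, edgeR adjusted p = 0.962). *Defb45* had 15 and 34 UMIs in the ko mice and 1 and 1 in the wt mice. It passed the filter only through the ko mice, so that its change is not read, although it is in the counts over 31 and 19 genes. *Gm14161*, whose start is 13834 bp from that of *Defb29*, had a log2 change of 0.73 (SE 0.47, edgeR adjusted p = 0.702). *Srxn1*, an antioxidant enzyme, had 1.31 (SE 0.37, edgeR adjusted p = 0.285). *Rem1*, a small GTPase, passed the filter only through the wt mice, so that its change is not read either. *Rem1* remains in the counts over 31, 28 and 19 genes, and both *Rem1* and *Defb45* are among the 7 with an unadjusted p below 0.05. *Id1*, an inhibitor of differentiation factors, had 0.23 (SE 0.38), and *Bcl2l1*, an inhibitor of apoptosis, 0.02 (SE 0.16). *Tpx2*, a spindle protein, had -0.73 (SE 0.28, edgeR adjusted p = 0.457) and *Pdrg1* 0.39 (SE 0.15, edgeR adjusted p = 0.461). Of 19 tested genes in this region, 12 had values above 0. Near *Defb42* on chromosome 14, *Wdfy2* had 0.60 (SE 0.22, edgeR adjusted p = 0.427). The other 20 tested neighbours lay between -0.58 and 0.46.

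**Figure D5:**
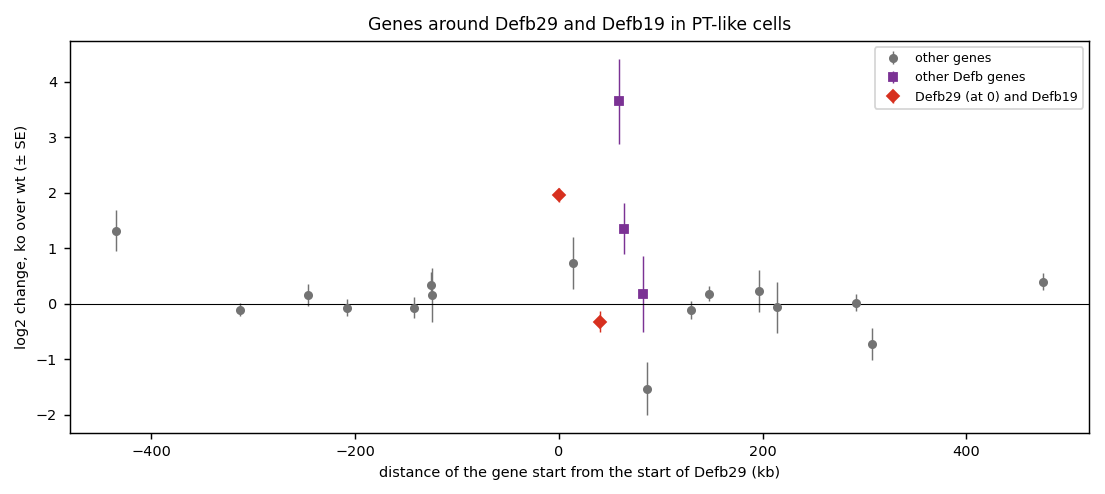
Log2 change (ko over wt, with SE bars, 2 mice in each genotype) in PT-like cells of the genes tested around *Defb29*, against the distance of their starts from that of *Defb29* in kb. *Defb29* at 0 has 1.95 and *Defb19* -0.32. *Defb45*, with 1 UMI in each wt mouse, and *Rem1* are drawn but not read. Each passed the filter only through the genotype in which it is higher.

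Another 7 *Defb* genes had at least 20 UMIs in the assigned cells. *Defb25* had 1418 UMIs and 16.9 CPM in free RNA, and its mean level was above the latter in NPC-like, renal vesicle-like and SSB-like cells and in cluster 5, and at most 4.11 CPM in the other classes. It stood at 77.7, 24.5, 23.5 and 36.4 CPM in NPC-like cells of mice 1 to 4, and at 18.0, 34.8, 12.9 and 49.9 CPM in renal vesicle-like cells, where mouse 3 lay below the free RNA. The mean in SSB-like cells was 19.5 CPM, with a log2 change of 0.05 (SE 0.46, edgeR adjusted p = 0.992). In cluster 5, which was led by *Spon1*, *Fgf8* and *Epha4* and could not be named, it was at 4.81 and 13.6 TMM CPM in the ko mice and at 30.2 and 66.3 TMM CPM in the wt mice. Both ko mice were below the free RNA. It fell there by 2.22 on the log2 scale (SE 0.43, edgeR adjusted p = 0.0282), where 0.733% of the genes tested were called. In NPC-like cells its log2 change was 0.37 (SE 0.48, edgeR adjusted p = 0.98), with 0.718% of genes called, and in renal vesicle-like cells -0.35 (SE 0.57, edgeR adjusted p = 0.923), with 0.454% called. *Defb36* (234 UMIs, 3.09 CPM in free RNA) averaged 6.13 CPM in early PT-like and 3.97 CPM in PT-like cells. *Defb45* (70 UMIs) averaged 2.48 CPM in intercalated-like cells, from 4 UMIs, and 1.56 CPM in PT-like cells. The latter mean pools 2.90 CPM in the ko mice and 0.217 CPM in the wt mice. *Defb28* (145 UMIs) was highest in cluster 5, with a mean of 5.97 CPM. It passed the filter there only through the ko mice, so that its change is not read. *Defb15* (55 UMIs), *Defb2* (53 UMIs) and *Defb11* (42 UMIs) had mean levels of at most 2.64 CPM in any class, the highest being in distal tubule-like or loop of Henle-like cells. The remaining 11 genes with a UMI had 1 to 16 UMIs each, and 6 of them a single UMI, which is not read as expression.

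Other genes of epithelial defence were taken from a list of 42, which held antimicrobial peptides, lectin and lipocalin genes and receptors of the innate response. In PT-like cells 18 of them were tested. None was called by edgeR or DESeq2, 4 had an unadjusted p below 0.05, against 9.64% of all genes tested, and the median log2 change was -0.04. These 4, named for their p, were *Adm* (log2 change -3.03, SE 1.18), *Ang* (-1.67, SE 0.53), *Nfkbia* (0.65, SE 0.25) and *Umod* (0.62, SE 0.23), with edgeR adjusted p values of 0.457, 0.338, 0.457 and 0.437. *Adm* was at 28.7 TMM CPM in mouse 3 and at 0.742 to 1.7 TMM CPM in the other mice. The 3 with the highest level there were *Spink1*, a trypsin inhibitor, with 1188 TMM CPM and a log2 change of -0.04 (SE 0.10), *Wfdc2*, a whey acidic protein, with 151 TMM CPM and 0.01 (SE 0.17), and *Wfdc15b*, of the same family, with 24.8 TMM CPM and 0.15 (SE 0.29). The edgeR adjusted p of these was 0.939, 0.989 and 0.917. Without mouse 3 there was 1 of 20 genes of the list called, against 4.49% of all genes, and without mouse 4 there were 5 of 21, against 13.6%. In the distal classes 1 of 16 tested genes of the list was called in loop of Henle-like cells, 1 of 8 in distal tubule-like cells and 0 of 5 in intercalated-like cells. Over all genes these shares were 0.185%, 0.79% and 0.0316%. An unadjusted p below 0.05 was found for 4, 2 and 0 of these genes. Over all genes tested it was found for 836 of 10828, 756 of 9238 and 416 of 6333. In early PT-like cells 0 of 13 were called by edgeR and 3 had such a p, against 890 of 11270 of all genes tested. *Wfdc15b* rose in loop of Henle-like cells, from 291 and 343 TMM CPM in the wt mice to 765 and 663 TMM CPM in the ko mice (log2 change 1.17, SE 0.16, edgeR adjusted p = 0.049). *Spink1* rose in distal tubule-like cells, from 61.9 and 94.8 to 175 and 161 TMM CPM (log2 change 1.14, SE 0.22, edgeR adjusted p = 0.0243). In loop of Henle-like cells *Spink1* had the opposite sign, with 50.8 and 57.7 TMM CPM in the ko mice and 108 and 81.5 TMM CPM in the wt mice (log2 change -0.81, SE 0.21, edgeR adjusted p = 0.395). In intercalated-like cells its log2 change was -0.78 (SE 0.52, edgeR adjusted p = 0.852).

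Over the 72 sums of 18 classes and 4 mice, the 5 genes with the highest Pearson correlation to each member in log2(CPM + 1) were found. These correlations are descriptions, since the sums share mice and classes. *Defb1* was most like *Atp6v1b1*, a proton pump subunit of intercalated cells (r = 0.85), and its list also held *Tmem213*, *Ckmt1* and *Bsnd*. *Defb42* was most like *Shd* (r = 0.77), *Cldn16*, a claudin of the thick ascending limb (0.77), and *Slc12a1* (0.77), followed by *1110019B22Rik* and *Ppp1r1a*. The list of *Defb19* held *Gm10804*, *Gk*, *Slc17a3* and *Acat3*. *Defb29* was most like *Gm13855* (r = 0.81), followed by *Phyhd1*, *Smim24*, *Keg1* and *Akr1c21*. The lists of *Defb19* and *Defb29*, although of the same class and region, held no gene in common.

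Because *Defb19* and *Defb29* are known from male reproductive tissue, markers of organs that a dissection could include were examined. *Lcn5*, *Insl3* and *Cyp11b1* had no UMI in the assigned cells. Of the other 12 markers of testis, epididymis and adrenal cortex, *Crisp1* was at 1.53 CPM in PT-like cluster 2 and 1.57 CPM in cluster 6, and *Star* at 0.88 and 2.02 CPM. *Amh*, *Dhh*, *Lcn8*, *Adam7*, *Rnase9*, *Cyp17a1*, *Hsd3b1*, *Nr5a1*, *Cyp11a1* and *Mc2r* were at 0.117 CPM or less in both clusters. Cluster 22, 60 cells that could not be named, was led by *Ly6d*, *Ulk4* and *Alas2*, and its 10 leading genes also held the globin genes *Hbb-bs*, *Hba-a2* and *Hba-a1* and the steroid enzymes *Cyp11a1* and *Hsd3b1*. Its median cell had 9565 UMIs. *Defb19* stood there at 25.5, 107, 36.3 and 66.97 CPM in mice 1 to 4, and *Defb29* at 25.5, 95.9, 36.3 and 22.3 CPM, from 8, 18, 31 and 3 cells. These levels lay on both sides of the free RNA and below those of PT-like cells of the same mouse, and rested on 38 UMIs of *Defb19* and 34 of *Defb29*, a ratio of 0.895.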

How the data were processed

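Kidney cells of 2 ko and 2 wt mice in a single pool were analysed. The 6 bulk samples were not analysed here. The authors counted reads with Cell Ranger (6.0.0 in the methods, 4 in the matrix header) and deposited counts of UMIs per gene, tag and barcode, without normalization or selection of cells. For these counts the genome build is not stated by these sources, and positions are from GENCODE M21 (GRCm38). The members and gene lists were chosen with earlier results of these data known.

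Barcodes with at least 6891 UMIs (order-of-magnitude rule, 24000 expected cells), 200 or more genes and no more than 10% of UMIs from mitochondria were retained (19272 cells). HTODemux (Seurat 5.3.0, quantile 0.99) assigned them to mice from the authors' list of tags. The 4721 cells with several tags were removed as doublets, and the 2680 with none and 4508 with tags that the list does not name were not used. Cells were normalized with SCTransform (sctransform 0.4.2, 3000 variable genes) and clustered at resolution 0.8 with 30 principal components.

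Names were given from marker lists. The mean log2 ratio of marker CPM (10 CPM added) to the other clusters had to be at least 0.5, with at least 3 markers 1.5-fold higher and in at least 10% of cells, no other type with more markers among the 10 leading genes, and no leading gene from another organ. The clusters had been seen when these limits were chosen. Counts were summed per mouse in classes with at least 10 cells in every mouse, and compared by edgeR 4.0.16 (quasi-likelihood test, filterByExpr, TMM, Benjamini-Hochberg adjustment, threshold 0.05), after tests on simulated data. SEs are the absolute log2 change divided by the square root of F. Shares of cells are per mouse, and the limits for a count of 0 rest on 3 counts. Precision is limited by the 2 mice in each genotype, whose litters are not given.

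The genes named were the members, other *Defb* genes with at least 20 UMIs, the 3 highest and the called genes of the defence list, the 5 most similar genes (at least 500 UMIs), and, of the 31 neighbours within 500000 bp that were tested, the *Defb* genes, those with an unadjusted p below 0.05 and 3 others chosen after their values were seen, with the other 20 given by their range. Those called in other classes were named after their values were seen. Alternatives were DESeq2 1.42.0, no filter beyond 1 count, each mouse left out, k-means or the highest tag for assignment, a minimum of 2500 UMIs, *Defb* genes left out of clustering, resolutions 0.4 and 1.2, Scrublet (scanpy 1.11.5, expected rate 0.15) and, chosen after seeing the data, tag counts normalized across cells. In the lists of genes most like *Defb1* and *Defb19*, 1 gene each is not reported here.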

Additional observations from a re-analysis of the deposited data

How the results depend on the processing

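Each mouse left out in turn moved the count of genes called in PT-like cells to between 9 and 1799, that of the defence list to between 0 and 5 and that of the neighbours to between 0 and 8. The lone mouse is then assumed to vary like the other genotype. All 9 and 15 genes called without mouse 1 or mouse 2 were among the 63. The count was 103 with DESeq2, 593 without a filter, 102 with k-means and 125 with the highest tag, and 53 to 87 under the other alternatives. Of the 593 genes called without a filter, 3 were in the defence list and 3 were neighbours. The numbers tested in that fit are not given here, so these counts are not read.

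The log2 change of *Defb29* in PT-like cells was 1.87 to 2.03 without each mouse, 2.24 with k-means, 2.16 with the highest tag, 2.30 with a minimum of 2500 UMIs, 2.29 at resolution 1.2, 2.21 without Scrublet doublets and 2.51 with tags normalized across cells. In early PT-like cells it was 1.16 to 1.71 without each mouse, 2.31 at resolution 0.4 and 2.22 with tags normalized across cells. That of *Defb19* in PT-like cells was 0.40 with the highest tag, 0.17 with a minimum of 2500 UMIs, 0.043 at resolution 1.2 and 0.073 with tags normalized across cells. Mouse 3 had 149 PT-like cells and 414 early PT-like cells, but 367 PT-like cells at resolution 1.2, 323 with a minimum of 2500 UMIs and 561 with the highest tag, whereas mice 1 and 2 had 315 and 345 and, at resolution 1.2, 320 and 359. At resolution 1.2 the assigned cells are the same, so that some of mouse 3 change class. With a minimum of 2500 UMIs and with the highest tag, 3149 and 3919 cells were assigned to mouse 3, against 2749. Changes of class cannot be told from the counts there. The level of *Defb19* in PT-like cells averaged 213 CPM with tags normalized across cells. At resolution 0.4 *Defb1* in distal tubule-like cells averaged 339 CPM, against 760 CPM, and its log2 change was 0.21. Leaving out each mouse gave -0.60 to -0.08 for *Defb19* in PT-like cells, -1.93 to 0.67 for *Defb1* in distal tubule-like cells, -1.25 to 0.81 for *Defb1* in intercalated-like cells and 0.43 to 0.98 for *Defb42* in loop of Henle-like cells. Thinning each cell to 6800 UMIs gave mean shares of cells with a UMI of 41.0% for *Defb29* and 37.5% for *Defb19* in PT-like cells, 44.0% for *Defb1* in distal tubule-like cells and 15.4% for *Defb42* in loop of Henle-like cells. The cause of these shifts was not tested, other than the fewer mice or UMIs.

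No paired analysis was possible because the 4 mice compared carry no shared replicate numbers, and the bulk samples that do were not analysed here. The 2 mice in each genotype, the assignment of cells to mice and the free RNA limit every value.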
